A study of Homo sapiens with 4 samples.

Results

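BCR and ABL1 are the genes that the Philadelphia translocation joins, and the HAP1 line carries that translocation from its parent, the chronic myelogenous leukemia line KBM-7. They were taken by name, as 2 of the 20162 protein-coding genes of the GENCODE release 44 annotation on GRCh37 (hg19). BCR (ENSG00000186716, chr22:23521891-23660224, plus strand) spans 138.334 kb, and ABL1 (ENSG00000097007, chr9:133588430-133763062, plus strand) spans 174.633 kb. All peaks sharing at least 1 bp with the gene body or with 100 kb on either side of it were collected, which gave 38 of the 87087 H3K27ac peaks and 0 of the 1723 MYC peaks. The study sequenced chromatin of unedited, wild-type HAP1 cells, an adherent line that the labels call near-haploid, after formaldehyde fixation. One library each was made for chromatin precipitated with an antibody against H3K27ac (acetylation of lysine 27 on histone H3), with an antibody against MYC and with normal rabbit IgG, and for input DNA, which had no antibody, so all 4 groups share the same cells and no treatment. With 1 library per group there is no replicate check and no test between groups, and the peak lists do not give the number of reads behind a peak. Neither the labels nor the peak lists give the exact breakpoints of HAP1 or the number of copies of the joined chromosomes. The peaks are placed on the unrearranged reference genome.

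BCR encodes a serine/threonine kinase, and ABL1 encodes a non-receptor tyrosine kinase that is held inactive in the normal cell. The translocation puts the 5′ exons of BCR in front of the 3′ exons of ABL1, and the joined protein is a tyrosine kinase that is always active and drives chronic myelogenous leukemia. The fusion is transcribed from the BCR promoter, whereas the reciprocal product carries the promoter and first exon of ABL1 and the 3′ exons of BCR. H3K27ac marks active promoters and enhancers, and MYC is a transcription factor that binds the E-box CACGTG.

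The usual breakpoints lie after exon 13 or exon 14 of BCR and within the long first intron of ABL1. The BCR region was taken as introns 13 and 14 with the exon between them (chr22:23631809-23634727, 2.919 kb) and the ABL1 region as the intron between exon 1b and exon 2 (chr9:133589843-133729450, 139.608 kb). The exon edges that meet in the usual fusion transcripts are shown because they define the sides compared here. They are reference sequences on the plus strand of GRCh37, with the 10 bases next to the edge in capitals, from chr22:23631779-23631808, chr22:23632571-23632600 and chr9:133729451-133729480.
BCR exon 13 3′ end: acagcattccgctgaccatcAATAAGGAAG
BCR exon 14 3′ end: actcagccactggatttaagCAGAGTTCAA
ABL1 exon 2 5′ end: AAGCCCTTCAgcggccagtagcatctgact
A break after exon 13 leaves 71.0% of the BCR coding sequence on the 5′ side, and a break after exon 14 leaves 27% of it on the 3′ side. For the exon 1b transcript of ABL1, 96.1% of the coding sequence lies beyond the first intron. Thus the fusion keeps most of the coding sequence of both genes.

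The H3K27ac list has a median fold enrichment over IgG of 5.30 and a range from 1.49 to 76.1. The BCR window of 338.334 kb held 18 H3K27ac peaks, or 0.532 per 10 kb, which covered 2.84% of it. Their fold enrichment ranged from 2.70 to 14.3 with a median of 5.26. The ABL1 window of 374.633 kb held 20 peaks, or 0.534 per 10 kb, which covered 3.53%, with fold enrichments from 2.67 to 22.9 and a median of 4.90. Per length the windows held almost the same number of peaks, but this depended on the peaks counted: BCR had 6 and ABL1 9 with a −log10 q of at least 10, 15 and 12 when peaks closer than 500 bp were merged, and 13 and 9 with at least 90% unique 32-base words. Of 19881 protein-coding genes on the main chromosomes, the median was 0.494 per 10 kb of such a window. The peaks were distributed differently: 13 of the 18 BCR peaks lay in the gene body, 3 upstream and 2 downstream, whereas 10 of the 20 ABL1 peaks lay in the body, 10 in the upstream flank and 0 in the downstream flank.

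The promoter of BCR was marked by a peak at chr22:23522599-23523947, with its summit 321 bp after the start of the canonical transcript, in the untranslated part of exon 1. Its summit was enriched 14.3-fold over IgG, with 40.6 for the −log10 q, and it ranked 11190 among all H3K27ac peaks. Of the 19881 genes, 13127 had an H3K27ac peak within 1 kb of the start of the canonical transcript, or 66.0%. The BCR value was below the median of those genes, which was 17.7, and it was above 34.9% of them. It was the highest value among the 18 peaks of the BCR window. The 201 bases around its summit were 87.1% G or C and held 41 CpG, the most of any of the 38 peaks. The 250 bases before the start of another BCR transcript (ENST00000359540), chr22:23522302-23522551 on the plus strand, are shown because they lead up to this peak, with CpG in capitals.
BCR promoter: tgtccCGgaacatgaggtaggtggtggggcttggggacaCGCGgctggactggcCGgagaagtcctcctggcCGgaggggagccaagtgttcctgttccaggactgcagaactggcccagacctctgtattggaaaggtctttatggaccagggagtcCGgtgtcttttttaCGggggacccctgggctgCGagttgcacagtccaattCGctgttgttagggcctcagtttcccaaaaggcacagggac
They hold 9 CpG, and the CpG-rich part of exon 1 under the summit follows them.

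ABL1 has alternative first exons, 1b and 1a, which give proteins with different N-terminal ends. The promoter of exon 1b carried the strongest peak of either window, at chr9:133588107-133589265, where the fold enrichment was 22.9 and the −log10 q 179, for rank 4304. This value was above 70.3% of the promoter peaks of the 13127 genes. Weaker peaks flanked it on either side, at chr9:133587534-133588038 with 4.45 and at chr9:133589608-133589804 with 4.59. The start of exon 1a (chr9:133710641), which is the canonical start in the annotation and whose exon lies 18538 bp before exon 2, had no H3K27ac peak within 1 kb. The nearest one had its summit 31166 bp upstream. Both windows of 250 bases before the starts are shown for comparison, with CpG in capitals, from chr9:133588180-133588429 (exon 1b) and chr9:133710391-133710640 (exon 1a), plus strand of GRCh37.
ABL1 1b promoter: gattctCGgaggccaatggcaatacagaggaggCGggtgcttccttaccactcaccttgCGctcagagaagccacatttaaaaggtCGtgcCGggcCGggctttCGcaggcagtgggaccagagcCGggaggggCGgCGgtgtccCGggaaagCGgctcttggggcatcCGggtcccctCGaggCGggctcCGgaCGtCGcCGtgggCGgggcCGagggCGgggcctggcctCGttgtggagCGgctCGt
ABL1 1a promoter: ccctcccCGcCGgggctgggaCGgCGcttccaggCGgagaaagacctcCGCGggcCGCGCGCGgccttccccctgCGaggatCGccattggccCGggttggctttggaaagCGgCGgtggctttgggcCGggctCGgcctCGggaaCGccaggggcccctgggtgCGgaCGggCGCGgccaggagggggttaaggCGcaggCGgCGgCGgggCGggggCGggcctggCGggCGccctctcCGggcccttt
The exon 1a window holds 33 CpG and the exon 1b window 25, so the unmarked start was the richer in CpG. Among the canonical starts of protein-coding genes, 2308 had at least 33 CpG in this window, and 2150 of them (93.2%) had an H3K27ac peak within 1 kb. ABL1 was among the 158 (6.85%) that did not. None of the 3 printed promoters holds CACGTG, which 7.87% of the 19881 promoter windows hold (the motif is its own reverse complement, so both strands are read together).

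**Figure D1:**
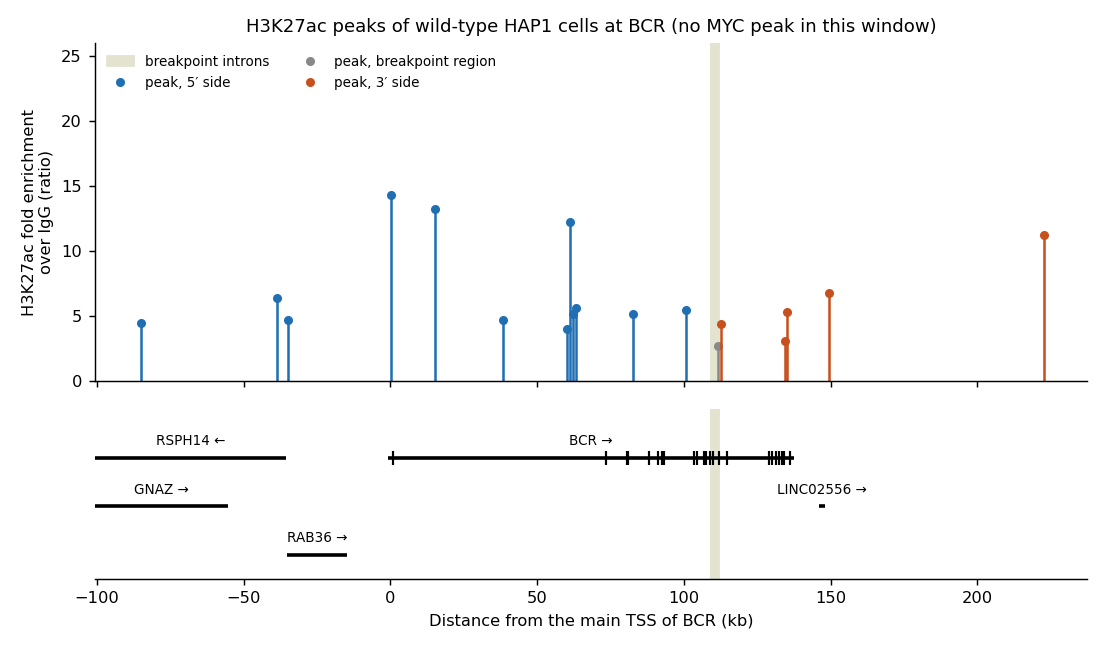
Fold enrichment over IgG of the 18 H3K27ac peaks in the BCR window (upper panel, 1 stem per peak at its summit) against the distance in kb from the start of the canonical transcript, coloured by side of the breakpoint introns (shaded), with genes, strand arrows and BCR exons below. The highest stems are the promoter (14.3) and a pair of peaks in intron 1 (13.3 and 12.2), all on the 5′ side, and the breakpoint introns hold the lowest (2.70).

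Intron 1 of BCR, which is 71559 bp long, held 6 further peaks, and 2 of them came close to the promoter in strength. The peak at chr22:23536624-23538091, 15.2 kb after the start, was enriched 13.3-fold, with 30.3 for the −log10 q. The peak at chr22:23583275-23584642, 61.3 kb after the start, was enriched 12.2-fold, with 28.5. Both were wide, at 1468 and 1368 bp, against a median width of 363 bp in the list. The other 4 ranged from 4.05 to 5.61, and 3 of these lay beside the peak at 61.3 kb, so that a cluster of 4 peaks stood within chr22:23582559-23586164. In 2 of these 4 the sequence was largely or partly repeated, with 1.23% (the peak of 4.05) and 58.7% (the peak of 5.61) of the 32-base words found once in GRCh37. These intronic peaks lay 2537 to 20391 bp from the nearest annotated start of any gene. The strong peak at 61.3 kb is shown as 201 bases around the summit, chr22:23583896-23584096, plus strand, with CpG in capitals, because it is the intronic peak of BCR with the highest fold enrichment among those of nearly all unique sequence.
BCR intron 1 peak at 61.3 kb: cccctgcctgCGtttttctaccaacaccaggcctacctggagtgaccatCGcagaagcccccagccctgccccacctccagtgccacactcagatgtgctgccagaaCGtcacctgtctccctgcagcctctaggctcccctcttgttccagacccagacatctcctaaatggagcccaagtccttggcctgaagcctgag
Only 39.0% of the 32-base words of the peak at 15.2 kb occur once in GRCh37, against 99.9% of those of the peak at 61.3 kb. A read no longer than a repeated word cannot be placed by its sequence alone, whereas a longer read may reach unique bases. The share of unique words therefore does not give the share of reads that could be placed. The part of repeats in the peak at 15.2 kb was not tested. The peak at 61.3 kb had few CpG (observed to expected 0.162), unlike the promoter (1.03).

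Farther along BCR, a peak of 5.16 in intron 4 lay at the start of the pseudogene FBXW4P1, and a peak of 5.49 in intron 8 held CACGTG within 100 bases of its summit, as the only BCR peak with that motif. The breakpoint introns held 1 peak, at chr22:23634083-23634292 in intron 14. Its enrichment of 2.70-fold, with 1.77 for the −log10 q, placed it at rank 85729 of 87087, near the end of the list. Its sequence is unique (100% of its 32-base words), and the 201 bases around the summit, chr22:23634174-23634374, plus strand, CpG in capitals, are shown as the marked site nearest to the usual junction.
BCR intron 14 peak: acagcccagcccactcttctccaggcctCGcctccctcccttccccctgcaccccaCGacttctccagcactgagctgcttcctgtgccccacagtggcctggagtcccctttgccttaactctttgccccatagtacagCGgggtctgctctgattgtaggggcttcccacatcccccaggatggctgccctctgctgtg
Beyond the breakpoint introns the gene body held peaks of 4.40 in intron 15, 3.13 in intron 22 and 5.32 in exon 23, the last exon. Downstream of BCR, a peak of 6.75 stood at chr22:23671820-23672143, where only 7.85% of the words are unique, and a peak of 11.3 at chr22:23744522-23745613 marked the start of the long noncoding RNA ENSG00000290920. Upstream, the starts of RSPH14 and RAB36 carried peaks of 6.37 and 4.71, and a peak of 4.49 lay in the bodies of RSPH14 and GNAZ. Thus 4 of the 5 peaks outside the BCR body lay in another gene or at its start.

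**Figure D2:**
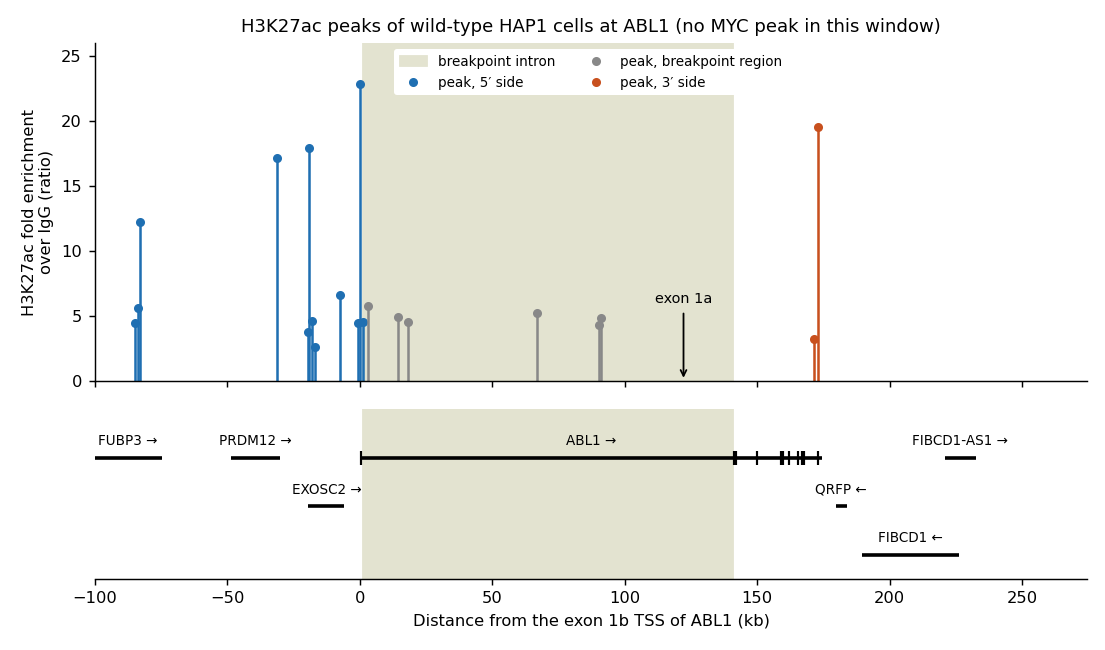
Fold enrichment over IgG of the 20 H3K27ac peaks in the ABL1 window (upper panel, 1 stem per peak at its summit) against the distance in kb from the start of exon 1b, coloured by side of the breakpoint intron (shaded), with genes, strand arrows and ABL1 exons below. The peaks at exon 1b (22.9) and in the last exon (19.5) stand at the ends of the gene, the 6 peaks of the intron lie between 4.30 and 5.77, and no stem stands at exon 1a.

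Within the breakpoint intron of ABL1, 6 peaks were called, with fold enrichments near the list median of 5.30 and widths below its median of 363 bp. In order from exon 1b their fold enrichments were 5.77, 4.96, 4.56, 5.27, 4.30 and 4.84, and their widths ranged from 224 to 361 bp. Only the one at chr9:133591484-133591816 had a −log10 q of at least 10 (10.5). The sequence under them was repeated elsewhere in the genome: 27% to 73.6% of their 32-base words were unique, with a median of 47.7%, against 80.3% over the whole intron. The other 32 peaks of the windows had a median of 99.9%. Counting only peaks with at least 90% unique words, a limit chosen after the values were seen, left 0 of these 6 peaks, 9 of the 20 ABL1 peaks and 13 of the 18 BCR peaks. Whether the intron peaks mark acetylated histones at these places was not tested, since the peak lists do not hold the reads. After them came a stretch of 79.959 kb without a peak, chr9:133679636-133759594, which holds exon 1a and 9 exons of the exon 1b transcript, including those that encode the kinase domain.

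**Figure D3:**
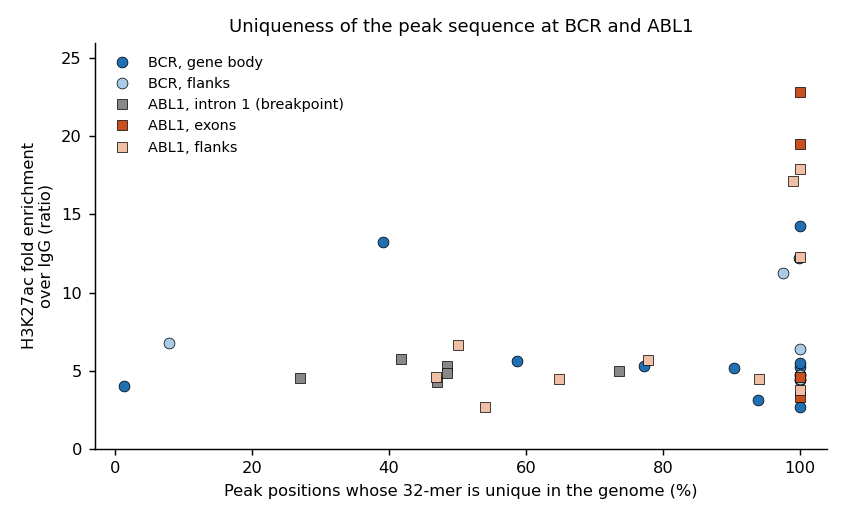
Fold enrichment over IgG of each of the 38 H3K27ac peaks against the percent of its 32-base words that occur once in GRCh37. The 6 peaks of the ABL1 breakpoint intron (grey squares) all lie at 73.6% or less, and the peaks of 14.3 and above lie at 98.9% or more, while the BCR intron 1 peak of 13.3 lies at 39.0%.

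The last exon of ABL1 carried the second strongest peak of its gene body, at chr9:133760088-133762632, where the fold enrichment was 19.5 and the −log10 q 63.2, for rank 6412. This peak was 2545 bp wide, and its words were all unique. It covered the end of the coding sequence and most of the 3′ untranslated part, with its summit in the latter, 7938 bp from the nearest annotated start, that of QRFP. A peak of 3.29 lay just before it, at chr9:133759595-133759850. An H3K27ac summit in the last exon over 5 kb from any annotated start was found in 399 of the 19881 genes, or 2.01%. The fold enrichment of the ABL1 peak was above 98.2% of those 399 values, whose median was 5.10. Among all 37275 H3K27ac peaks over 5 kb from a start it was above 98.8% in fold enrichment (median 4.96) and above 99.6% in width (median 321 bp). The peak held 3.97 CpG per 100 bp, more than 80.8% of those peaks. The last 200 coding bases of the exon, chr9:133760868-133761067, plus strand, CpG in capitals, lie within the peak and encode the C-terminal end of the protein, in the actin-binding domain that the fusion protein also carries.
ABL1 last exon coding part in the peak: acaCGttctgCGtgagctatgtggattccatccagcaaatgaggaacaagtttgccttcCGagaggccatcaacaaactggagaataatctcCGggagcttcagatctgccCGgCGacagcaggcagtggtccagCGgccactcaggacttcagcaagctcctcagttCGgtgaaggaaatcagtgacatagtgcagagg
From the end of this peak no other was called for 104.282 kb, over QRFP, FIBCD1 and FIBCD1-AS1. None of these 3 genes had an H3K27ac peak within 1 kb of its canonical start.

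**Figure D4:**
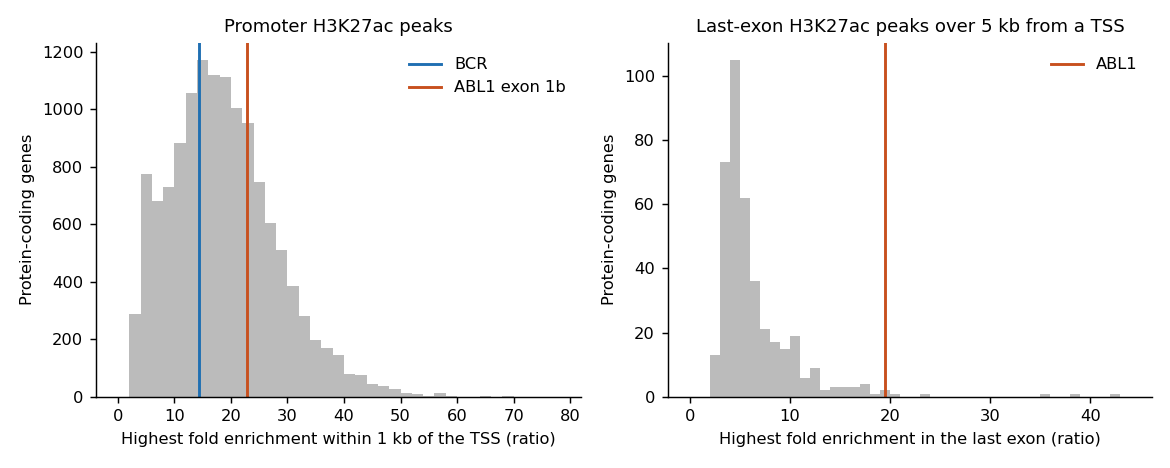
Distribution over protein-coding genes of the highest H3K27ac fold enrichment within 1 kb of the canonical start (left, 13127 genes with such a peak) and in the last exon over 5 kb from any annotated start (right, 399 genes). The vertical lines give BCR (14.3) and ABL1 exon 1b (22.9) on the left, which lie on either side of the median of 17.7, and ABL1 (19.5) on the right, which lies above 98.2% of the genes.

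The upstream flank of ABL1 carried 10 peaks, 9 of which lay in other genes or next to EXOSC2. FUBP3, which encodes a single-stranded DNA binding protein, had peaks of 4.48, 5.66 and 12.3 in the last part of its body. PRDM12, a transcription regulator of nociceptive neurons, had no peak at its start but 1 of 17.1 in its body, at chr9:133556363-133557589. EXOSC2, a subunit of the RNA exosome, had 17.9 at its start, with peaks of 3.77, 4.62, 2.67 and 6.65 around it. The last of the 10 was the peak of 4.45 just before exon 1b.

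The sides of the breakpoints were then compared, with each peak placed by its summit. On the 5′ side of the BCR region, 12 peaks in 209.918 kb gave 0.572 per 10 kb (exact Poisson 95% interval 0.295 to 0.999), and on the 3′ side 5 peaks in 125.497 kb gave 0.398 (0.129 to 0.930). These intervals treat peaks as independent counts, which neighbouring peaks are not, and cover counting error only. The ratio of the densities was 1.43, with an exact conditional interval from 0.471 to 5.20, so that no difference was detectable with these counts. The share of the sequence that is unique was 91.3% on the 5′ side and 68.6% on the 3′ side. Per unique 32-base word the ratio was 1.08, with all peaks still counted. With only peaks of at least 90% unique words as well, it was 1.35 (9 peaks against 3, 0.336 to 7.74). Median fold enrichments were 5.35 and 5.32. The peaks covered 3.50% of the 5′ side and 1.64% of the 3′ side. Within the gene body alone the order of the densities was the other way, with 9 peaks in 109.918 kb against 3 in 25.497 kb (ratio 0.696, interval 0.174 to 4.0).

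For ABL1 the densities lay farther apart. The 5′ side held 12 peaks in 101.413 kb, or 1.18 per 10 kb (0.611 to 2.07), and the 3′ side 2 peaks in 133.612 kb, or 0.150 (0.018 to 0.541). The ratio was 7.91, and its interval from 1.76 to 72.7 did not reach 1. The interval included 1 without peaks within 1 kb of an annotated start (ratio 3.29, 5 peaks against 2, 0.539 to 34.6). It also did with peaks closer than 500 bp merged (7.91, 6 against 1, 0.959 to 364). With only peaks of at least 90% unique words and lengths counted in unique words, it again included 1 (4.90, 7 against 2, 0.932 to 48.3). In the gene body only the ratio was 23.8 (1.72 to 328), from 2 peaks in 1.413 kb against 2 in 33.612 kb. The intron between them had 0.430 per 10 kb (0.158 to 0.935). The 5′ side is the flank with FUBP3, PRDM12 and EXOSC2 plus 1.413 kb of ABL1, so 10 of its 12 peaks were outside the gene. The share of unique words was 84.2% on the 5′ side and 89.4% on the 3′ side, and per unique word the ratio was 8.39. Median fold enrichments ran in the other direction, at 5.14 on the 5′ side and 11.4 on the 3′ side, the latter being the mean of the 2 last-exon peaks of 19.5 and 3.29. In the gene body only, without the flank peaks, the direction turned, at 13.7 and 11.4. Peaks covered 8.55% of the 5′ side and 2.1% of the 3′ side.

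**Figure D5:**
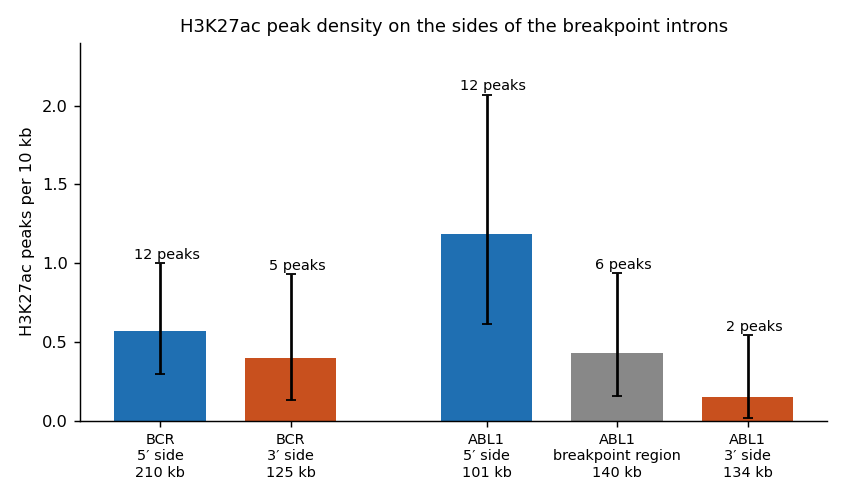
H3K27ac peaks per 10 kb (bars) on the 5′ and 3′ sides of the BCR breakpoint introns and on the 5′ side, in the intron and on the 3′ side of ABL1, flanks of 100 kb included, with exact Poisson 95% intervals (lines) and the number of peaks above. The BCR intervals overlap, and those of the ABL1 5′ side (from 0.611) and 3′ side (to 0.541) do not; the BCR introns, 2.919 kb with 1 peak, are left out.

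When the sides were put together as in the products of the translocation, the 5′ side of BCR and the 3′ side of ABL1 held 14 peaks in 343.53 kb, or 0.408 per 10 kb. The 5′ side of ABL1 and the 3′ side of BCR held 17 peaks in 226.91 kb, or 0.749 per 10 kb. The ratio of fusion to reciprocal was 0.544, with an interval from 0.248 to 1.17 that includes 1. Per unique word it was 0.454 (0.207 to 0.978), and with the BCR split moved to intron 1 it was 0.337 (0.111 to 0.871), so that both intervals then fell below 1. Covered shares were 2.95% and 4.73%. The fusion sides had the BCR promoter (14.3), the BCR intron 1 peaks and the last exon of ABL1 (19.5), and the reciprocal sides had the promoters of ABL1 exon 1b (22.9), EXOSC2 (17.9) and ENSG00000290920 (11.3) and the peaks in the bodies of PRDM12 (17.1) and FUBP3 (12.3). Which chromosome a peak came from cannot be read from these lists.

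Compared with 2579 protein-coding genes of 100 to 250 kb, the BCR body was dense in H3K27ac peaks. Its 13 peaks were more than in 84.7% of those genes (median 4), and they covered 5.29% of the body, more than in 88.9% (median 1.49%). The longest stretch of the BCR body without a peak was 22745 bp, and only 1.51% of the genes had a shorter one (median 85464 bp). The ABL1 body, with 10 peaks (more than in 76.0%) and 3.20% covered (more than in 75.4%), had a longest stretch of 79959 bp, longer than in 46.2% of the genes. BCR thus had a shorter longest stretch than nearly all genes of this length, and ABL1 was close to the middle. The ABL1 values count the 6 peaks of its breakpoint intron, none of which had at least 90% unique words. Without those peaks its count would be lower and its longest stretch longer. The BCR values also count body peaks of low uniqueness, with 39.0%, 1.23%, 58.7% and 77.2% unique words. The peak of 39.0% borders the longest stretch of BCR. Without these peaks the BCR count and covered share would be lower and its longest stretch longer. The comparison was not repeated without peaks of low uniqueness in BCR, ABL1 or the other genes. When the 1230 of these genes with at least 5 summits in the body were cut at the same relative place as BCR, at 80.5% of the body, a median of 91.7% of the summits lay on the 5′ side. BCR had 9 of 13 there (69.2%), a share above that of 15% of the genes. Cut at 40.8% of the body, the middle of the ABL1 intron, the same genes had a median of 57.1%, and ABL1 had 6 of 10 (60.0%).

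The genes with the most similar pattern were sought by the distance over 4 measures (number of H3K27ac peaks in the body, covered share, promoter fold enrichment and MYC peaks in the body) among genes of a length within 20%. For BCR, 1312 genes were compared, and the nearest were RAB11A (14 peaks, 4.63% covered, promoter 13.7), STX18 (14 peaks, 4.60%, 13.7) and FEZ2 (12 peaks, 5.81%, 13.1). For ABL1, whose canonical start is the unmarked exon 1a, 1021 genes were compared, and NBPF10 and AKNAD1 were the nearest, each with 10 peaks in the body and no peak at the canonical start. The length limit of 20% left ABR out of the comparison with BCR and ABL2 out of that with ABL1. Whether each paralog resembles its member by this distance was therefore not tested. ABR, which shares its domains with BCR, had 42 peaks in a body of 226274 bp and a promoter peak of 19.9, and ABL2, the other ABL kinase, had 13 peaks in 130355 bp, the same number as BCR, and a promoter peak of 44.3.

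No MYC peak was called in either window. The background is that 4838 of the 19881 genes, or 24.3%, have a MYC peak in the body or within 100 kb, so having none is the common case. The closest MYC peaks to BCR were 1538 kb upstream, in YDJC, with a fold enrichment over input of 7.10, and 450 kb downstream, at the start of CHCHD10, with 4.71. Those closest to ABL1 were 1128 kb upstream, in PRRX2, with 4.22, and 470 kb downstream, in PLPP7, with 4.80. The list holds only peaks that passed the threshold of the peak caller, so it gives no level of MYC at either gene. The reference sequence of the windows holds CACGTG 63 times at BCR and 77 times at ABL1. It occurs in 1 of the 18 BCR peaks (5.56%) and in 5 of the 20 ABL1 peaks (25%), against 9.42% of all H3K27ac peaks. Of the 5 at ABL1, 4 are in the upstream flank and the other is the wide last-exon peak. These 5 peaks were 711 to 2545 bp wide, against a list median of 363 bp. A wider peak has more room for the motif, and the shares were not matched for width. Within 100 bases of the summit the motif was in 1 BCR peak (intron 8) and 1 ABL1 window peak (the start of EXOSC2), against 3.41% of all.

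The kinase acts through adaptors and the RAS, PI3K and JAK-STAT pathways, and the genes of these pathways were examined at their starts. The paper cites a screen that proposes GRB2 as essential in both KBM-7 and HAP1. By that screen the other members of the RAS-MAPK pathway of the fusion were essential only in KBM-7. Whether the kinase affects these starts in HAP1 was not tested. Of 52 genes, 50 had an H3K27ac peak within 1 kb of the canonical start (96.2%), against the 66.0% of all protein-coding genes. The median of their highest fold enrichments was 22.7, against 17.7. Among the adaptors and docking proteins it was 10 of 11, with GRB2, which links the fusion kinase to RAS, at 15.4, CRKL, a direct substrate, at 26.1 and GAB2 at 31.8, and DOK2 without a peak. All 13 genes of the RAS-MAPK list were marked, with NRAS at 7.61 and SOS1, a nucleotide exchange factor for RAS, at 31.9. All 9 of the PI3K-AKT list were marked, from MTOR at 14.5 to PIK3R2 at 41.8. All 10 of the JAK-STAT and survival list were marked, from STAT5A at 10.7 to the kinase PIM1 at 44, with STAT5B at 28.1 and BCL2L1, which encodes an inhibitor of apoptosis, at 13.5. Of 9 regulators and substrates of ABL, 8 were marked, and PSTPIP1 was not, although another annotated start of PSTPIP1 carried a peak. A MYC peak lay within 1 kb of the start in 2 of the 52 genes, NRAS and STAT3, against 3.69% of all genes. 

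The parent line is leukemic, so 10 haematopoietic marker genes were examined in the same way. The paper describes HAP1 as having lost the expression of such markers, and the peak lists do not measure expression. H3K27ac peaks stood at the canonical starts of 4 (40%, against the 66.0% of all protein-coding genes), with fold enrichments of 14.6 at TAL1, 7.77 at LYL1, 5.00 at SPI1 and 4.62 at KIT, and those of TAL1 and LYL1 had a −log10 q of at least 10. The canonical starts of PTPRC (the leukocyte antigen CD45), CD33, CD34, GATA1, MPO and ITGAM had none. With any annotated start counted, 5 of the 10 were marked, since another start of ITGAM carried a peak. By that count 13879 of the 19881 protein-coding genes were marked.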

How the data were processed

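ChIP-seq was performed by the authors on wild-type HAP1 cells with 1 library each for H3K27ac, MYC, normal rabbit IgG and input. Reads were aligned to hg19, and narrow peaks were called for H3K27ac with IgG as control and for MYC with input as control. The submitters' processing notes name bcl2fastq (2.20), Bowtie2 (2.2.4) and MACS2 (2.1.1). The peak caller was run with its default settings for narrow peaks, and how reads with several alignments were treated is not given in the sources used here. The study lists fewer unique mapped reads for MYC than for H3K27ac, which bears on how many MYC peaks could be called. The deposited peak lists hold the fold enrichment at the summit as a ratio over the control, as computed by the authors. The −log10 p and −log10 q values are also as deposited by the authors, and −log10 q served for a stricter threshold of 10. The deposited score was not used. Lists of the IgG and input libraries were not used here. The number of reads per peak is not in the lists, so no precision from depth can be given.

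Peak positions were made 1-based, and 0 of the 88810 peaks ended beyond a GRCh37 chromosome. Genes and starts were from GENCODE release 44 lifted to GRCh37, restricted to 19881 protein-coding genes on the main chromosomes for comparisons over genes. A 32-base word was unique when it occurred once in GRCh37, both strands counted. Counts were given with exact Poisson intervals and shares and density ratios with exact (Clopper-Pearson) ones, at 95%. No test between groups was made, because each group has 1 library. Density ratios within the H3K27ac list were read by whether their interval included 1, which covers counting error only. The scripts were tested on simulated peaks and sequences. The genes named are the members, genes in the windows, the paralogs ABR and ABL2, the 3 most similar genes of each member and the pathway and marker lists. Of the similar genes, the pathway genes and the peak sequences, 1 each is not reported here. The members and lists were chosen with earlier results of these data known. Alternatives were a stricter threshold, other flanks, splits and distances, merged peaks and measures of unique sequence. Python (3.11.15), numpy (2.4.6), scipy (1.17.1), pandas (2.3.3), pysam (0.24.0), samtools (1.23.1) and matplotlib (3.10.9) were used.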

Additional observations from a re-analysis of the deposited data

How the results depend on the processing

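The alternatives run for MYC could only remove or merge peaks, so they could not change the absence of MYC peaks in both windows. These MYC counts are included in the 54 values given next. Of 73 values recomputed, 54 were counts or median differences within 1.5 times the value reported, or ratios that lay inside its interval and whose own interval still included, or still excluded, 1. Within those limits the BCR density ratio still crossed 1, at 0.696 in the gene body only and 0.801 with the split at intron 1, and the ABL1 ratio rose to 23.8 in the gene body only, from 2 peaks against 2. With a −log10 q of at least 10, BCR had 6 H3K27ac peaks and ABL1 9. ABL1 had 10 peaks in the gene body only, 13 without peaks within 1 kb of an annotated start, 12 when peaks closer than 500 bp were merged and 9 with at least 90% unique words. The ABL1 density ratio was 3.29 without peaks near starts and 7.91 with merged peaks. It was 4.90 when peaks of at least 90% unique words and lengths in unique words were used together. Each of these intervals included 1, with fewer peaks counted. With lengths in unique words alone the ratio was 8.39, and its interval did not include 1. The ratio of fusion to reciprocal sides was 0.337 with BCR split at intron 1 and 0.454 per unique word, with intervals below 1. The split at intron 1 left that intron and its peaks out of both sides. The value per unique word still counted peaks in repeated sequence. The difference in median fold enrichment of the BCR sides (0.026) had no stable sign. It was 3.74 with the stricter threshold, 0.63 with flanks of 50 kb, 1.09 in the gene body, 0.49 without peaks near starts, −0.71 with merged peaks, 0.30 with the split at intron 1 and −0.85 with the split at intron 19. That of the ABL1 sides turned from −6.26 to 2.32 in the gene body only, where the flank peaks are left out. The 50 marked pathway genes were 50 or 51 under each alternative. The counts of unique sequence were added after the data were seen. No paired analysis was possible because each group has 1 library. The peak lists give no read numbers, so signal too weak to be called cannot be described.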
